A study of Mus musculus with 7 samples.

Results

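The expression of 9 genes of glutamine metabolism and amino acid transport was described in immature and mature bone marrow-derived dendritic cells (BMDCs) of the mouse. They are Glul, Glud1, Slc1a5, Slc38a1, Slc38a2, Slc7a5, Slc3a2, Slc7a2 and Slc36a2, taken by gene symbol from a table of 28666 genes, and all 9 passed the filter on low counts that left 17461 genes for testing. The symbols were chosen by their roles with the mature against immature counts and FPKM of this table in view, so these values are given as a description, with fold changes and standard errors but no test.

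The BMDCs were grown from bone marrow of female C57BL/6 mice of 6 to 8 weeks with GM-CSF and IL-4 for 7 days and were co-cultured in a Transwell system with MC38 mouse colon carcinoma cells. Immature cells (3 libraries) and mature cells (4 libraries) were then separated by flow sorting, and oligo(dT)-selected RNA was sequenced. DON, a glutamine analogue that inhibits enzymes using glutamine, was applied for 24 h according to the text of the study, whereas a figure legend names DMSO or DON at 5 µM. The paper's co-culture conditions also differed in glutamine, which was lower with DMSO and supplemented with DON. The labels give the sorted state alone, so neither the agent nor the glutamine level behind each library is stated there. They also do not say whether replicates came from separate animals or cultures, and p-values therefore measure the spread between these libraries.

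Glutamine enters cells through sodium-coupled carriers such as Slc1a5, Slc38a1 and Slc38a2. Inside the cell, glutamine gives rise to glutamate, glutamate dehydrogenase (Glud1) feeds glutamate into the citric acid cycle, and glutamine synthetase (Glul) makes glutamine again from glutamate and ammonia. Exchangers of the SLC7 family, which need a heavy chain such as Slc3a2 (CD98) to reach the cell surface, trade one amino acid for another, and dendritic cells use imported amino acids for protein synthesis and for signalling to mTORC1 at the lysosome.

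Levels below are FPKM, the fragment numbers scaled by gene length and library size that the authors deposited, and differences are log2 fold changes of mature against immature cells from the deposited counts. Total counts were 54846746 to 67973086 per library. Dendritic cell markers had a summed FPKM of 4061 to 4202 in immature and 5130 to 6936 in mature libraries. The 6936 was that of mature replicate 3, whose FPKM total over all genes was also the highest of any library, at 381707. Of the 8 dendritic cell markers, 4 passed the test upwards and 0 downwards. Most of the sum was Cd74, which did not pass (log2 fold change 0.41 ± 0.15 SE). H2-Ab1 changed little (0.06 ± 0.18 SE) and Itgax was lower (-0.41 ± 0.11 SE). All 6 markers of mature dendritic cells passed the test upwards, among them Cd80 and Cd86. The paper gates mature dendritic cells of tumours by CD80 and CD86 and does not name the markers of this sort. The rise of Cd80 and Cd86 may therefore not be independent of the sort. Of 8 macrophage markers, 7 passed the test downwards, and the sum of the 8 went from 773 to 810 in immature libraries to 155 to 174 in mature libraries. Markers of neutrophils, basophils, mast cells and lymphocytes summed to at most 3.73 in any library, and epithelial markers to between 13.8 and 21.6. Markers of heart muscle summed to 267 to 286 in mature replicates 2, 3 and 4 against 12.3 in mature replicate 1 and at most 2.05 in immature cells, and markers of kidney tubule to 194 in mature replicate 2 against at most 0.0900 elsewhere. Most of the heart muscle sum in mature replicate 1 was Tnni3, at 11.18 there and 1.33, 1.64 and 1.38 in immature replicates. In RNA from a mass of cells, fewer cells of a type and less RNA per cell cannot be told apart.

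Of the 9 genes, 3 were lower in mature cells past the criteria used for the whole table (edgeR's quasi-likelihood test, adjusted p below 0.05, and a change of 2-fold or more), and 0 were higher. Across all tested genes 23.1% passed, 13.2% higher and 9.95% lower. By adjusted p alone, 6 of the 9 passed, beside 46.1% of all tested genes. In CPM, the counts relative to the TMM-adjusted library total, the groups did not overlap for 2 genes that were higher and 5 that were lower in mature cells, beside 52.1% of all tested genes in either direction. Because the genes were chosen with this contrast in view, nothing is read from these counts. The median log2 fold change of the 9 was -0.28, and that of all tested genes was 0.055.

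**Figure D1:**
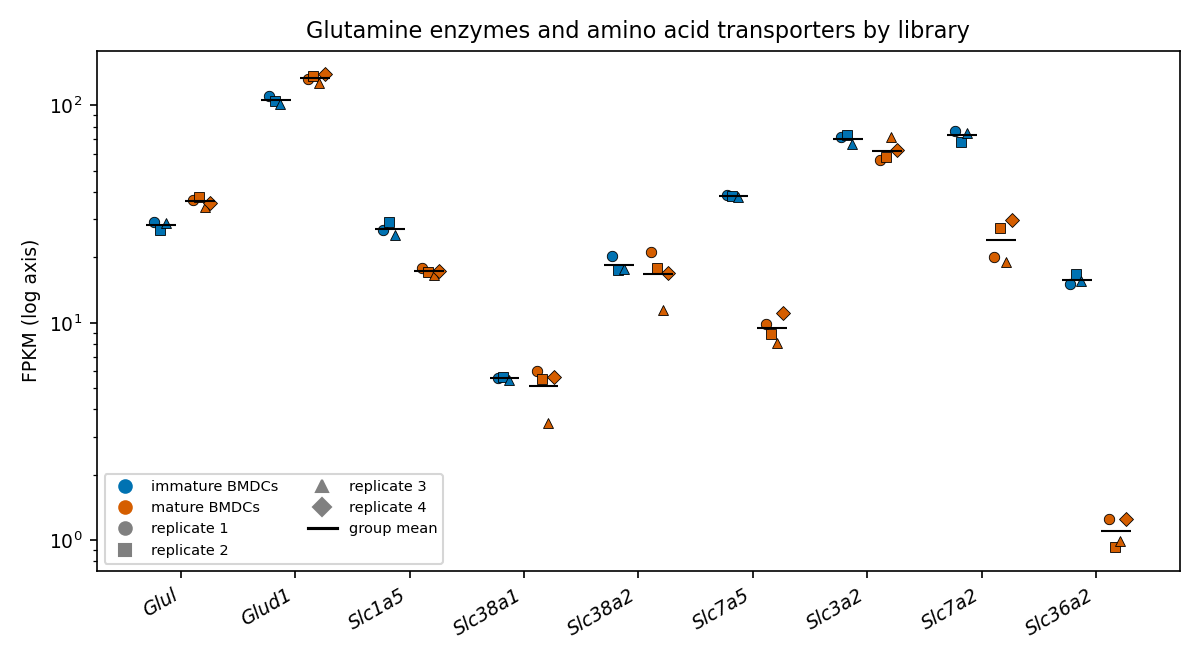
FPKM (log axis) of the 9 genes in each library, with immature BMDCs in blue, mature BMDCs in orange, symbols for the replicate number and a bar at the group mean. Slc36a2, Slc7a5 and Slc7a2 lie apart between the groups, and mature replicate 3 is the lowest library for Slc38a1 and Slc38a2.

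Glul and Glud1, a pair of enzymes that use glutamate, were slightly higher in mature cells. Glul, glutamine synthetase (chr1:153899944-153909723, plus strand, mouse build GRCm38, as are all positions here), had an FPKM of 29.27, 26.71 and 28.68 in immature replicates 1, 2 and 3. In mature replicates 1 to 4 its FPKM was 36.79, 38.07, 34.10 and 35.79. Every mature library was above every immature one, and the part of other tissue in these values was not tested. The log2 fold change was 0.25 ± 0.073 (SE), or 1.19-fold higher.

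Glud1, the mitochondrial enzyme that converts glutamate to 2-oxoglutarate (chr14:34310727-34345265, plus strand), was the most abundant of the 9 per length. Its FPKM was 110, 105 and 102 in immature replicates 1, 2 and 3 and 133, 137, 127 and 139 in mature replicates 1 to 4. The mature libraries again lay above all immature ones, and the log2 fold change was 0.23 ± 0.071 (SE). With a mean of 106 ± 4.04 (SD, n = 3) and 134 ± 5.30 (SD, n = 4), Glud1 was above 97.6% of tested genes in immature and 98.1% in mature cells.

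The glutamine importers were lower in mature cells or overlapped between the groups. Slc1a5 (ASCT2), a sodium-dependent exchanger of neutral amino acids including glutamine (chr7:16781340-16798274, plus strand), had an FPKM of 26.82, 29.01 and 25.28 in immature replicates 1, 2 and 3. Its mature FPKM was 17.82, 17.16, 16.66 and 17.42 in replicates 1 to 4. All mature libraries were below all immature ones, and the log2 fold change was -0.75 ± 0.072 (SE), or 1.68-fold lower. This is short of the 2-fold criterion.

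Slc38a1 and Slc38a2 encode the sodium-coupled neutral amino acid transporters SNAT1 and SNAT2 and are neighbours on chromosome 15 (chr15:96571418-96642913 and chr15:96687392-96699730, both minus strand). Slc38a1 had an FPKM of 5.59, 5.67 and 5.49 in immature replicates 1, 2 and 3 and of 5.98, 5.51, 3.48 and 5.64 in mature replicates 1 to 4. Slc38a2 had an FPKM of 20.38, 17.54 and 17.74 in immature and of 21.15, 17.83, 11.50 and 16.93 in mature replicates, in the same order. In FPKM the groups overlapped for both genes, with mature replicate 1 the highest library and mature replicate 3 the lowest. In CPM the groups did not overlap for Slc38a1, at 109 to 111 in immature and 68.1 to 107 in mature libraries.

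The log2 fold change was -0.23 ± 0.14 (SE) for Slc38a1 and -0.25 ± 0.16 (SE) for Slc38a2. Without mature replicate 3 these values were -0.08 and -0.11, and with mature replicate 1 as the sole mature library -0.01 and 0.08, so that the sign of Slc38a2 depended on the mature library used. Slc38a2 was more abundant per length than Slc38a1 in every library. The ratio of their FPKM was 3.32 ± 0.287 (SD, n = 3) in immature and 3.27 ± 0.220 (SD, n = 4) in mature cells, and mature replicate 3, at 3.30, was within the range of the others. The size of this ratio depends on the length used for each gene, since CPM divided by the longest transcript gave 2.02 and 1.99.

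Mature replicate 3 stood apart from the other mature libraries in a way that followed transcript length. The median difference in log2 CPM between it and the mean of the other 3 was 0.40 for 5486 genes with a longest transcript of up to 2000 bases and -0.48 for 1995 genes above 6000 bases. Slc38a1 (7266 bases) and Slc38a2 (6116 bases) were lower in it by 0.58 and 0.56 (log2 differences of -0.58 and -0.56), close to the median of their length class. Slc7a2, the longest of the 9 at 7910 bases, differed by -0.29. Slc3a2 (2813 bases) was 0.42 higher, above the 0.063 of its class. The other 5 genes were within 0.15 of the other mature libraries. The part of transcript length in these values was not tested.

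**Figure D2:**
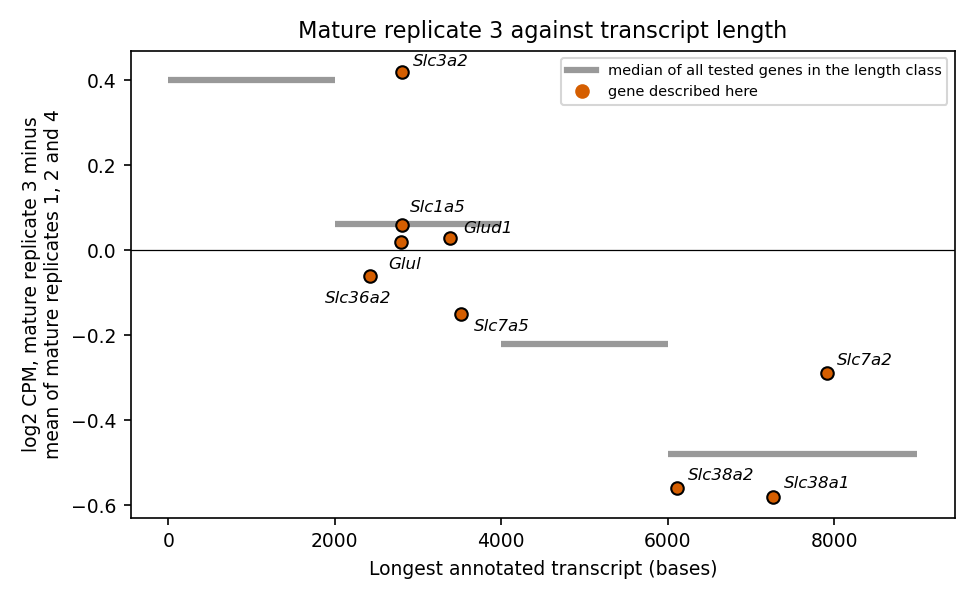
Difference in log2 CPM between mature replicate 3 and the mean of mature replicates 1, 2 and 4 (y axis) against the longest annotated transcript in bases (x axis) for the 9 genes (points), with grey bars at the median of all tested genes in each length class. Slc38a1 and Slc38a2 lie near the bar of the longest class at -0.48, and Slc3a2 lies at 0.42.

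The large neutral amino acid exchanger was much lower in mature cells, whereas the groups overlapped for its heavy chain. Slc7a5 (LAT1), which brings in leucine and other large neutral amino acids in exchange for glutamine (chr8:121881150-121907694, minus strand), had an FPKM of 38.94, 38.25 and 37.87 in immature replicates 1, 2 and 3. In mature replicates 1 to 4 it was 9.86, 8.86, 8.12 and 11.09. The groups were far apart, with a log2 fold change of -2.12 ± 0.10 (SE), or 4.36-fold lower. It ranked above 93.6% of tested genes in immature and 75.4% in mature cells.

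Slc3a2, the CD98 heavy chain (chr19:8706882-8723369, minus strand), had an FPKM of 71.86, 73.06 and 66.55 in immature replicates 1, 2 and 3 and of 55.95, 58.13, 71.67 and 62.24 in mature replicates 1 to 4. The groups overlapped because mature replicate 3 lay at the immature level. The log2 fold change was -0.28 ± 0.12 (SE), and -0.38 without mature replicate 3. The FPKM ratio of Slc3a2 to Slc7a5 was 1.85, 1.91 and 1.76 in immature and 5.67, 6.56, 8.83 and 5.61 in mature replicates, with means of 1.84 ± 0.0767 (SD, n = 3) and 6.67 ± 1.5 (SD, n = 4). It was thus higher in all 4 mature libraries, and most so in mature replicate 3.

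The heavy chain pairs with several light chains, of which Slc7a5, Slc7a6, Slc7a7, Slc7a8 and Slc7a11 were set side by side after their values were seen. Slc7a5 made up 46.6% ± 0.347 (SD, n = 3) of their summed FPKM in immature and 12.8% ± 0.995 (SD, n = 4) in mature cells. Slc7a8 (LAT2), a second exchanger of neutral amino acids, went from 24.1% ± 0.523 to 4.25% ± 0.654. Slc7a7 (y+LAT1), an exchanger of cationic for neutral amino acids, had the largest share in mature cells, with 15.2%, 16.0% and 15.2% in immature and 53.3%, 53.6%, 60.2% and 53.1% in mature replicates. The share of Slc7a11 (xCT), which takes up cystine in exchange for glutamate, was 9.17% ± 0.214 in immature and 20.2% ± 2.71 in mature cells.

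As single genes, Slc7a7 rose (log2 fold change 1.57 ± 0.078 SE, adjusted p = 1.1e-06 by edgeR) and Slc7a8 fell (-2.76 ± 0.15 SE, adjusted p = 1.5e-06). Slc7a11, at 0.88 ± 0.12 (SE, adjusted p = 3.9e-04), and Slc7a6, another y+L exchanger, at 0.45 ± 0.091 (SE, adjusted p = 0.0036), did not pass the fold criterion. The summed FPKM of the 5 light chains was 82.3 ± 1.59 (SD, n = 3) in immature and 74.0 ± 5.19 (SD, n = 4) in mature cells. Slc3a2 divided by this sum was 0.858, 0.885 and 0.826 in immature replicates 1, 2 and 3 and 0.752, 0.775, 1.07 and 0.783 in mature replicates 1 to 4. Mature replicate 3 was above every immature library and the other 3 mature libraries were below all of them, with a mature mean of 0.845 ± 0.151 (SD, n = 4) with that library and 0.770 ± 0.0163 (SD, n = 3) without it. These are levels of mRNA, and the amounts of protein and of heterodimers were not measured.

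**Figure D3:**
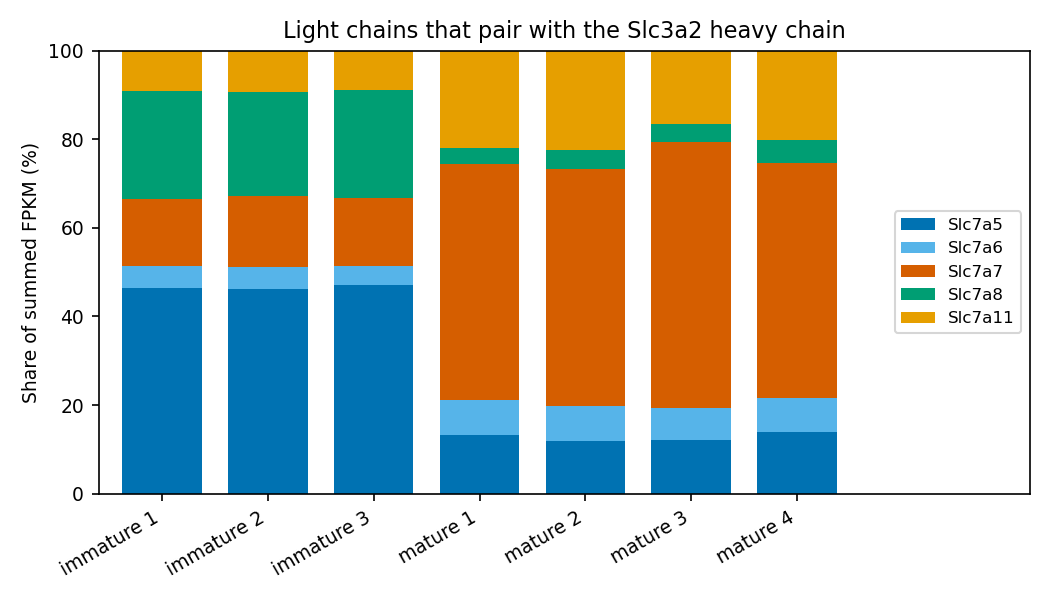
Share of the summed FPKM (y axis, %) of 5 light chains that pair with Slc3a2 in each library (x axis). Slc7a5 and Slc7a8 fill most of the bar in the 3 immature libraries, and Slc7a7 fills 53.1% to 60.2% in the 4 mature ones.

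Slc7a2 and Slc36a2, carriers of cationic and of small amino acids, were also lower in mature cells. Slc7a2 (CAT2), a carrier of arginine, lysine and ornithine that needs no heavy chain (chr8:40862396-40922308, plus strand), had an FPKM of 76.17, 67.91 and 74.91 in immature replicates 1, 2 and 3. Its FPKM was 20.18, 27.47, 19.08 and 29.86 in mature replicates 1 to 4. The groups did not overlap, and the mature libraries fell into a lower pair (replicates 1 and 3) and a higher pair (replicates 2 and 4). The log2 fold change was -1.71 ± 0.15 (SE), or 3.27-fold lower.

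Slc36a2 (PAT2), a proton-coupled carrier of glycine, alanine and proline (chr11:55158470-55185077, minus strand), had an FPKM of 15.14, 16.74 and 15.61 in immature replicates 1, 2 and 3 and of 1.25, 0.93, 0.99 and 1.25 in mature replicates 1 to 4. This was the largest difference of the 9, with a log2 fold change of -3.94 ± 0.13 (SE), or 15.3-fold lower. It ranked above 84.6% of tested genes in immature and 36.5% in mature cells. The 7 macrophage markers that fell moved in the same direction, with log2 fold changes from -1.07 (Adgre1) to -2.79 (C1qb), and the part of macrophage-type cells in the values of Slc36a2 and Slc7a2 was not tested.

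In order of mean FPKM, the immature cells had Glud1 (106), Slc7a2 (73.0), Slc3a2 (70.5), Slc7a5 (38.4), Glul (28.2), Slc1a5 (27.0), Slc38a2 (18.6), Slc36a2 (15.8) and Slc38a1 (5.58). Slc7a2 and Slc3a2 overlapped between their libraries, as did Glul and Slc1a5. In mature cells the order was Glud1 (134), Slc3a2 (62.0), Glul (36.2), Slc7a2 (24.1), Slc1a5 (17.3), Slc38a2 (16.9), Slc7a5 (9.48), Slc38a1 (5.15) and Slc36a2 (1.10), and there Slc38a2 overlapped with both Slc1a5 and Slc7a2.

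**Figure D4:**
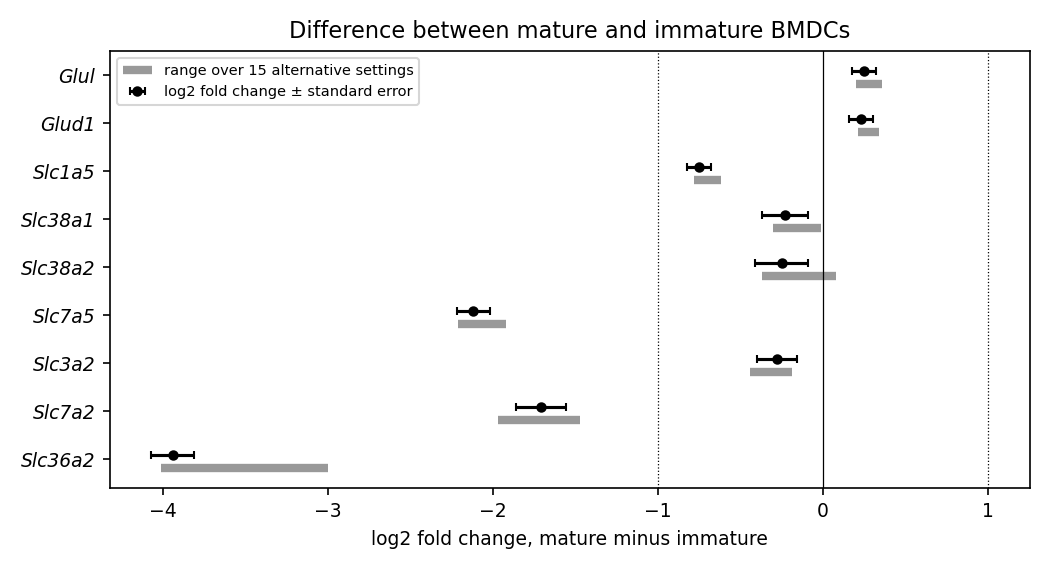
Log2 fold change of mature against immature cells for the 9 genes (points, with bars of 1 standard error) and the range over 15 alternative settings (grey). Dotted lines mark a change of 2-fold, and Slc38a2 is the gene whose range crosses 0.

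The genes nearest to each of the 9 were sought by the root mean square difference in log2 CPM over the 7 libraries, after each gene was centred on its own mean, among 6666 genes with a mean FPKM of at least 5. Within this set Slc36a2 had no close neighbour, since its nearest genes were Cd5l (0.29) and Mrc1 (0.30), with log2 fold changes of -3.44 and -3.43. Genes under the FPKM limit were not searched. Slc7a2 was nearest to Acpp (0.079) and Ero1l (0.097), and Slc7a5 to Ecm1 (0.066) and Lhfpl2 (0.071). Slc1a5 was nearest to Morf4l2 (0.038) and Dnaja3 (0.039). The nearest genes were Hdac1 (0.029) and Metap1 (0.032) for Glud1, Pik3c3 and Mxi1 (both 0.037) for Glul, and Cops5 (0.033) and Pcbp1 (0.036) for Slc3a2. For Slc38a1 they were Golm1 (0.045) and Hnrnpul1 (0.047), and for Slc38a2 Ppp4r3b (0.058) and Vezf1 (0.068).

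Promoter sequence from 250 bases before to 50 bases after the start was at hand from RefSeq (GRCm38.p6) for Glul, Glud1, Slc38a2 and Slc3a2. None of these 4 windows held TGATGNAA, the core of the amino acid response element bound by ATF4, or the E-box CACGTG, on either strand. Among all 32851 promoters, 3.97% held the first and 7.15% the second. The window of Slc3a2 lies inside the span of the gene given above and not at its outer end, so it belongs to another start than that of the longest span. The result says only that these letters are not in these windows.

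The other genes of amino acid handling were counted in 6 lists that leave out the 9 genes. Of 108 genes listed, 100 were found in the table and 87 were tested, of which 15 rose, 16 fell and 56 did not pass the criteria. The share that passed was 35.6%, beside 23.1% of all tested genes, and the median log2 fold change was -0.23. Because the lists were chosen with earlier results of these data known, nothing is read from this difference in share. By list, the calls were most one-sided among uniporters and proton-coupled or lysosomal carriers (6 lower and 0 higher), and nothing is read from this either.

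Among 24 enzymes of glutamine and glutamate, 2 rose and 2 fell, with a median log2 fold change of 0.036. Gls2, the liver-type glutaminase, rose from an FPKM of 0.10, 0.11 and 0.17 in immature replicates to 3.11, 2.64, 2.34 and 2.30 in mature replicates (log2 fold change 4.21 ± 0.24 SE, adjusted p = 2.2e-06). Every mature library was above every immature one.

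Prodh, which starts the breakdown of proline, rose (1.66 ± 0.16 SE, adjusted p = 5.0e-05) from a mean FPKM of 0.477 to 1.64. Psat1, the glutamate-using aminotransferase of serine synthesis, fell from 13.9 ± 0.700 (SD, n = 3) to 5.50 ± 1.17 (SD, n = 4) FPKM (-1.44 ± 0.15 SE, adjusted p = 6.7e-05). Ggt5, which cleaves gamma-glutamyl groups from glutathione and leukotriene C4, fell as well, at a mean FPKM under 0.4 in both groups (-2.31 ± 0.37 SE, adjusted p = 0.001).

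Of 13 tested sodium-dependent carriers of the SLC1, SLC6 and SLC38 families, 6 rose and 1 fell. Slc1a4 (ASCT1), a paralogue of Slc1a5 that carries alanine, serine and cysteine, was the one expressed at more than 1 FPKM among the 6. Its FPKM was 3.31, 2.91 and 2.83 in immature and 14.10, 13.62, 10.22 and 13.10 in mature replicates, opposite in direction to Slc1a5, and the log2 fold change was 1.97 ± 0.11 (SE, adjusted p = 2.3e-06). The single fall was that of Slc6a9, a glycine carrier (-1.64 ± 0.19 SE, adjusted p = 1.2e-04), which is named because it makes up this count.

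The remaining rises in this list were of genes at most 0.295 FPKM in the mean of either group. Slc6a15 had 0 counts in all immature libraries and in mature replicate 1, and 31, 15 and 12 in mature replicates 2, 3 and 4, which is at least 4.87-fold higher than a floor of 3 counts per library (adjusted p = 0.0376). Slc38a3 (SNAT3) had 0, 0 and 4 counts in immature and 0, 90, 67 and 46 in mature replicates (adjusted p = 0.0313). The 2 genes were thus at 0 in the mature library that also had the lowest sum of heart muscle markers, and the part of other tissue in their counts was not tested. Both lost their call without any single immature library and without mature replicate 2, 3 or 4.

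Slc6a19, a carrier of the gut and kidney epithelium, had 0, 8 and 0 counts in immature and 33, 191, 39 and 43 in mature replicates, highest in mature replicate 2, the library with the kidney tubule markers. Its log2 fold change was 4.65 ± 1.2 (SE, adjusted p = 0.0143), 4.04 without immature replicate 3 and 3.74 without mature replicate 2. Without immature replicate 2 the immature libraries were at 0, and the mature mean was at least 25.9-fold higher than a floor of 3 counts per library. Slc1a2 (GLT-1), a glutamate carrier best known from glia, rose from a mean FPKM of 0.0267 to 0.188 (2.60 ± 0.69 SE, adjusted p = 0.0137), with 3.81 without immature replicate 3 and no call without immature replicate 2.

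Of 7 tested exchangers and cationic carriers of the SLC7 and SLC3 families, Slc7a7 rose and 3 fell. Beside Slc7a8, these were Slc7a1 (CAT1), the widespread carrier of arginine and lysine, which went from 4.93 ± 0.363 (SD, n = 3) to 2.23 ± 0.487 (SD, n = 4) FPKM (-1.26 ± 0.15 SE, adjusted p = 1.9e-04), and Slc7a4, a relative of the cationic carriers (-1.01 ± 0.18 SE, adjusted p = 0.00194). Slc7a1 thus moved in the same direction as Slc7a2. The call of Slc7a4 lay at the fold criterion and was lost without immature replicate 2, mature replicate 1 or mature replicate 2.

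Of 10 tested uniporters and proton-coupled or lysosomal carriers, 6 fell and 0 rose, with a median log2 fold change of -1.3. In this list 7 genes were lower and 1 higher by adjusted p alone. Slc36a1 (PAT1), the lysosomal paralogue of Slc36a2, had an FPKM of 27.13, 26.64 and 25.54 in immature and 3.81, 3.78, 2.34 and 3.97 in mature replicates (-3.04 ± 0.15 SE, adjusted p = 1.1e-06). Slc36a4, a further paralogue, fell from 14.8 ± 1.04 (SD, n = 3) to 4.18 ± 0.866 (SD, n = 4) FPKM (-1.94 ± 0.14 SE, adjusted p = 8.6e-06). With Slc36a2, 3 genes of the SLC36 family were thus lower in mature cells.

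Slc16a10 (TAT1), a uniporter of aromatic amino acids, fell from 2.49 to 0.545 FPKM in the mean (-2.29 ± 0.12 SE, adjusted p = 1.4e-06). Slc43a3, a purine nucleobase carrier of a family that also holds amino acid uniporters, fell as well (-1.42 ± 0.095 SE, adjusted p = 5.4e-06). Pqlc2, which exports cationic amino acids from lysosomes, had a log2 fold change of -1.11 ± 0.15 (SE, adjusted p = 4.0e-04). The last of the 6 was Slc43a2 (LAT4), named to complete the count, at -1.0 ± 0.089 (SE, adjusted p = 3.0e-05), whose call at the fold criterion was lost without immature replicate 1, mature replicate 3 or mature replicate 4.

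Of 8 tested mitochondrial carriers, 2 rose and 2 fell. Slc25a29, a carrier of basic amino acids, rose from 0.277 ± 0.0907 (SD, n = 3) to 3.24 ± 0.486 (SD, n = 4) FPKM (3.43 ± 0.28 SE, adjusted p = 1.9e-05). Slc25a38, the glycine carrier used in haem synthesis, rose from 7.5 ± 0.435 to 20.4 ± 2.2 FPKM (1.35 ± 0.13 SE, adjusted p = 4.5e-05). Slc25a44, for branched-chain amino acids (-1.27 ± 0.10 SE, adjusted p = 1.7e-05), and Slc25a15, for ornithine (-1.13 ± 0.13 SE, adjusted p = 1.2e-04), fell.

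Among 25 genes of amino acid sensing at the lysosome, 4 rose and 2 fell, with a median log2 fold change of -0.32. The arginine sensor Castor1 rose from 5.01 ± 0.748 (SD, n = 3) to 21.2 ± 3.39 (SD, n = 4) FPKM (1.99 ± 0.18 SE, adjusted p = 3.3e-05). Its paralogue Castor2 rose from 3.84 ± 0.277 to 28.2 ± 3.46 FPKM (2.76 ± 0.11 SE, adjusted p = 4.3e-07). Sesn3, of the sestrins that bind GATOR2, rose from 0.543 to 3.69 FPKM in the mean (2.64 ± 0.18 SE, adjusted p = 6.5e-06). All 3 encode proteins known to restrain mTORC1, and Rragb, which also rose, is not among them. The sestrins Sesn1 (-0.32 ± 0.10 SE) and Sesn2 (0.68 ± 0.069 SE) did not pass the criteria.

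Rragb, a Rag GTPase that differs little in sequence from Rraga, rose from 0.05 to 0.620 FPKM (3.53 ± 0.81 SE, adjusted p = 0.00722), and its value was 2.93 without immature replicate 3. Fnip2, a partner of folliculin, fell from 17.8 ± 1.40 (SD, n = 3) to 4.73 ± 0.843 (SD, n = 4) FPKM (-2.02 ± 0.12 SE, adjusted p = 3.1e-06). Lamtor3, a subunit of the Ragulator scaffold named to complete the count, fell from 20.5 ± 0.906 to 10.3 ± 0.363 FPKM (-1.09 ± 0.085 SE, adjusted p = 1.4e-05).

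**Figure D5:**
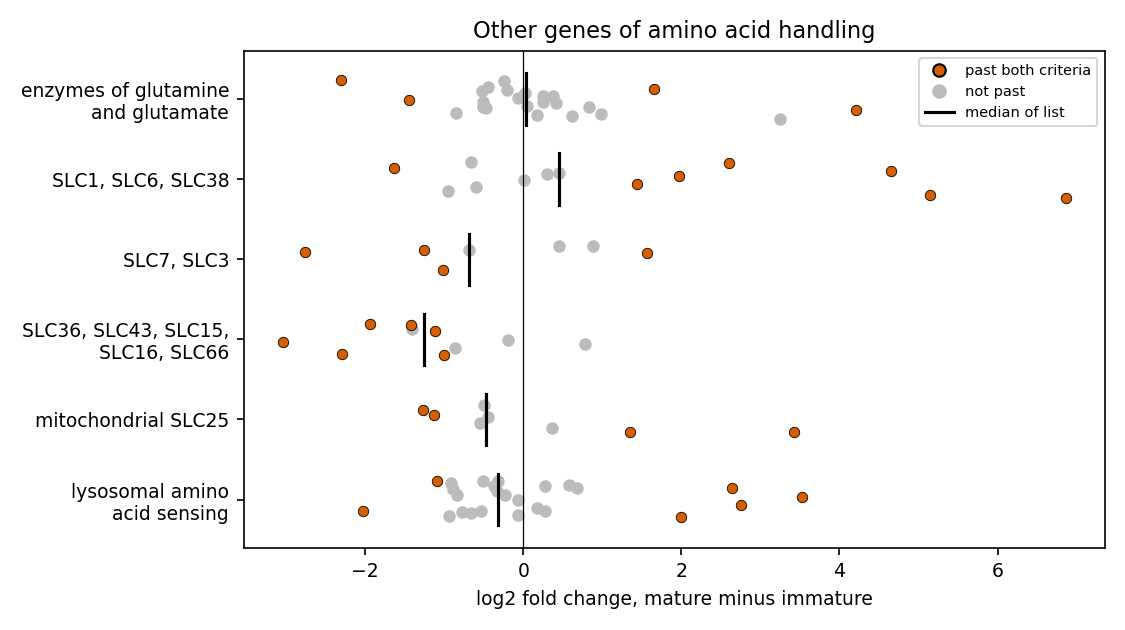
Log2 fold change of mature against immature cells (x axis) for the 87 tested genes of the 6 lists (y axis), with orange points past both criteria, grey points not past and a bar at the median of each list. The 6 genes past the criteria among the SLC36, SLC43, SLC15, SLC16 and SLC66 carriers all lie below 0, and the high values among the SLC1, SLC6 and SLC38 carriers are of genes with few counts.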

How the data were processed

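The series holds RNA-seq of sorted BMDCs, 3 libraries of immature and 4 of mature cells. The labels give the group and the replicate number, and culture, treatment and sex and age of the mice from the study's methods. The submitters' processing notes name cutadapt 1.9, HISAT2 2.2.1, StringTie 2.1.6, DESeq2, edgeR and the build mm9, but gene coordinates in the table equal those of GENCODE M21 on GRCm38 for 25842 of 28588 shared genes, so GRCm38 is used. The counting program and its strand setting are not given in the sources used here. Values were deposited by the authors as whole-number counts, not normalized, and FPKM values scaled by length and library. Of counts from 1 to 40, 30.3% were multiples of 4, where an even spread gives 25%.

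The counts were fitted in R 4.3.3 with edgeR 4.0.16 (filterByExpr, TMM, quasi-likelihood test) over all 7 libraries, with p-values adjusted by the Benjamini-Hochberg method over 17461 genes, and genes were called at an adjusted p below 0.05 with a log2 fold change of 1 or more in either direction. CPM are counts relative to the TMM-adjusted library total. The alternatives were DESeq2 1.42.0, limma 3.58.1 on log2(FPKM + 1) and log2(FPKM + 0.1) (genes reaching an FPKM of 1 in at least 3 libraries), no filter, each library left out, mature replicates 1 and 3 left out, mature replicate 1 alone, adjusted p alone, a replicate block and, added after the data were seen, counts divided by 4. Python 3.11.15 was used for summaries. On simulated counts with 200 genes changed 4-fold, edgeR recovered 92.5% with 8 false calls among 16946 genes. The changed genes were drawn without those of lowest mean CPM, and neither other-tissue signal nor a trend with transcript length was simulated. These figures therefore do not cover genes with few counts or those features of the mature libraries.

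The 9 genes, the lists and the markers were chosen with earlier results of these data known. Named are the 9, Gls2, the list genes past the criteria (up to 5 of a list, by size of change) and the 2 nearest genes of each of the 9. Slc6a9, Slc43a2, Lamtor3, Slc7a6, Slc7a11 and the genes named in the closing section were chosen after their values were seen. No 2 libraries of a group held like counts, since the median chi-square per gene was 3.83 to 25.6 between them. Slc7a10, Slc7a12, Slc38a5, Slc38a8, Slc38a11, Slc1a6, Slc6a14 and Pycr3 were not analysed here, and a further gene of the lists is not reported here.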

Additional observations from a re-analysis of the deposited data

Results flagged for a closer look

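Among 52 values compared over the 4 mature libraries (CPM of named genes, FPKM ratios, light chain shares and marker sums), 5 had 1 library whose gap to the nearest other, divided by the whole range, was above Dixon's critical value. Chance gives this in about 1 of 20 such groups. The share of Slc7a7 among the light chains of Slc3a2 was apart in mature replicate 3, at 60.2% against 53.1% to 53.6% (gap 0.925 of the range), and the CPM of Slc6a19 was apart in mature replicate 2 (0.901). The summed FPKM of mature dendritic cell markers was apart in mature replicate 3, at 1969 against 1816 to 1831 (0.902), that of heart muscle markers in mature replicate 1, at 12.3 against 267 to 286 (0.928), and that of kidney tubule markers in mature replicate 2, at 194 against at most 0.05 (1.00). Mature replicate 3 also had the highest FPKM total over all genes, at 381707 against 329247, 332767 and 337706 in mature replicates 1, 2 and 4. The marker sums were not scaled to these totals.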

How the results depend on the processing

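Of 135 log2 fold changes of the 9 genes under 15 alternatives, 123 moved by less than the spread between replicates, 12 moved by more and 1 changed sign, that of Slc38a2 (0.08 with mature replicate 1 alone). Over all genes, 4037 passed, against 2561 and 1768 with limma and pseudocounts of 0.1 and 1, and 8053 by adjusted p alone. In the amino acid lists 31 passed, against 20, 16 and 61 in the same order. The limma fits held fewer genes, namely those reaching an FPKM of 1 in at least 3 libraries. List genes below that limit, such as Ggt5 and Slc1a2, were not tested there, so the limma counts are of a smaller set. Leaving out 1 library gave 3646 to 4052 genes over all and 27 to 31 in the lists. With the FPKM ratios replaced by CPM divided by the longest transcript, Slc3a2 to Slc7a5 was 2.19 in immature and 7.93 in mature cells, and Slc38a2 to Slc38a1 2.02 in immature and 1.99 in mature cells. This scale differs from FPKM in the length used for a gene. With mature replicate 1 alone, where the spread comes from the immature libraries, 1727 genes were higher and 1814 lower, against 2300 and 1737 in all libraries, and 11 and 17 in the lists against 15 and 16. Same-numbered libraries did not deviate together (r = 0.0285, -0.00114 and 0.0144), so no pairing by number was seen. The other-tissue signal and the length trend of single mature libraries enter these values, so whether libraries were paired cannot be told from them. The fit with a replicate block gave 3616 genes over all and 31 in the lists.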

Other observations

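Other genes of the lists were found nearly only in mature replicate 2, the library with the kidney tubule markers. In FPKM, Ggt1, which cleaves glutathione, stood at 2.86 against at most 0.12 in any other library, Slc7a13 at 1.78 against 0.00, Slc3a1 at 1.76 against at most 0.11, Abat at 0.45 against at most 0.02, Slc7a9 at 0.29 against 0.00 and Slc1a1 at 0.22 against at most 0.01. Slc3a1 and Slc7a9 encode the heavy and light chain of the cystine carrier of the kidney tubule. Ggt1 was tested and did not pass (log2 fold change 3.25, adjusted p = 0.180), and the other 5 were under the filter on low counts.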
